A study of Mus musculus with 12 samples.

Results

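Hyaluronan genes were followed in macrophages sorted from mouse pancreatic tumours: the synthases Has1, Has2 and Has3, the hyaluronidases Hyal1, Hyal2 and Hyal3, the receptors Cd44 and Hmmr, and the hyaluronan-modifying protein Tnfaip6. They were chosen by name, as the non-control probes of the array that carry 1 of these 9 symbols, out of 31131 names on the array. The 9 genes had 14 probes, of which 13 were detected, meaning well above background, on 6 or more of the 12 arrays, so that 8 of the 9 genes entered the comparison over 20370 genes. Hyal3 did not.

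The samples were 6 YFP+ and 6 YFP- macrophage sorts, and each of 6 tumour numbers occurs once in each group. Counts of tumours below set the arrays of the same number side by side. Whether these numbers pair the samples could not be decided, so such counts are descriptions and the p-values do not use them. All were labelled as female C57/B6 mice of 8 to 10 weeks that carried implanted tumours, with the genotype marked as not provided. The design text of the series names mice with FLT3-CRE and LSL-YFP, in which Cre made under Flt3 control removes a stop before YFP in cells with a history of Flt3 expression, beside wild-type and KPC mice. It does not say which of these gave each sample, and the labels name neither the implanted tumour line nor the other sort markers. Each sample is 1 array. No label says whether the samples of a group came from separate animals, so the p-values speak of the spread among these samples alone.

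Hyaluronan is a long unbranched sugar chain that synthases in the plasma membrane build from UDP-glucuronic acid and UDP-N-acetylglucosamine and push out of the cell. Hyaluronidases cut it, Hyal2 at the cell surface and Hyal1 in lysosomes, and other lysosomal enzymes finish the fragments. CD44 is its main receptor on leukocytes, HMMR binds it and also works on the mitotic spindle, and TSG-6, the product of Tnfaip6, moves heavy chains of inter-alpha-inhibitor onto it. Pancreatic carcinoma is known for a stroma rich in hyaluronan, much of it made by fibroblasts and tumour cells.

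The probes of Cd44 are shown because their mean differences between the groups were unlike, though no probe passed the test over all probes. Its 4 probes lie on the minus strand of chromosome 2 (mm9, positions of the array annotation, as are all positions here), probe 1 furthest downstream at chr2:102651398-102651457 and the others at chr2:102654278-102654337, chr2:102672645-102672704 and chr2:102677971-102678030. Probe 3 lies 18.4 kb and probe 4 23.7 kb upstream of probe 2. The probes are written 5′ to 3′ on the strand of the transcript, and the capitals in probe 2 mark the stop codon that closes the reading frame starting at its first base, after 15 codons and with 12 bases following. Probes 3 and 4 hold no stop in any of the 3 forward frames.
Cd44 probe 2: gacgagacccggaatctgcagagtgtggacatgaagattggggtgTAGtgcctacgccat
Cd44 probe 3: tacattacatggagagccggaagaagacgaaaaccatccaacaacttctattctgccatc
Cd44 probe 4: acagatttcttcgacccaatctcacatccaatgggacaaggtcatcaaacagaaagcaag
The Cd44 transcript is known to be spliced in many forms that share their first and last exons and differ in a central run of variable exons. No exon model of this build was used here, so the probes are not assigned to exons.

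None of the 8 tested genes passed the test in either direction. Of all 20370 genes, 288 (1.41%) were called lower and 68 (0.334%) higher in YFP+ macrophages (limma, adjusted p under 0.05). Of the 8, only Has3 had an unadjusted p under 0.05, where 11.2% of all genes did. The differences were negative for 7 of the 8 and positive for 1, where 10753 of all 20370 genes were negative. The median was -0.18 against -0.03 over all genes tested. With each array centred on its median instead, Has1, Has2 and Cd44 turned positive (0.17, 0.10 and 0.066). Values below are the log2 processed signal minus the 75th percentile of the array, so that 0 is the level of that percentile, and differences are YFP+ minus YFP-. A probe's own binding sets its brightness, so values are compared between arrays and not between genes.

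**Figure D1:**
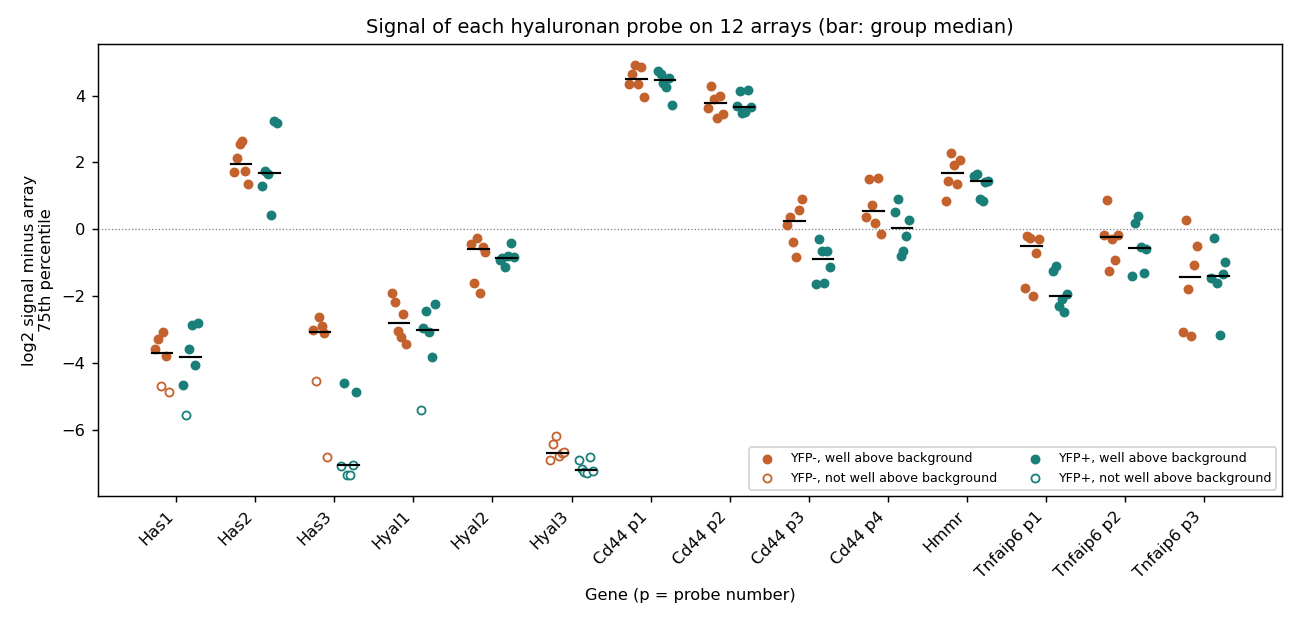
Log2 signal minus the array's 75th percentile (vertical axis) for the 14 probes of the 9 genes (horizontal axis), with 1 point per array, YFP- in orange and YFP+ in teal, open where the spot was not well above background, and a bar at each group's median. The groups overlap for every probe, all 12 points of Hyal3 are open, and Has3 is filled on 4 YFP- and 2 YFP+ arrays.

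Has1, Has2 and Has3 differ in how fast they work and how long a chain they release, and Has2 is the one needed for embryonic development. Has1 (chr17:17980413-17980472) ranged from -4.88 to -3.06 with a median of -3.69 on the YFP- arrays, and from -5.55 to -2.80 with a median of -3.82 on the YFP+ arrays. The groups overlapped, and the lowest and the highest array were both YFP+. Has1 was well above background on 5 YFP+ and 4 YFP- arrays, and its difference was -0.04 (SE 0.50; limma, adjusted p = 0.99), with a 95% interval from -1.12 to 1.04. That interval is wide enough to hold a change of 1 in either direction, so the arrays do not show equal levels.

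Has2 (chr15:56497356-56497415) was detected on all 12 arrays. It ranged from 1.35 to 2.65 (median 1.94) in YFP- and from 0.41 to 3.25 (median 1.69) in YFP+ macrophages. The YFP+ arrays lay on both sides: tumours 5 (3.25) and 6 (3.17) were above every YFP- array, and tumours 1 (1.29) and 4 (0.41) were below every one. The spread was wider among YFP+ samples (SD 1.1, n = 6) than among YFP- samples (SD 0.51, n = 6), a difference that was not tested. The mean difference was -0.11 (SE 0.47; limma, adjusted p = 0.96), and within the 3 slides it was 0.50, 0.33 and -1.15.

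Has3 (chr8:109405354-109405413) had the largest difference among the 8 tested genes. On the YFP- arrays it read -3.01, -4.52, -2.63, -2.90, -3.12 and -6.81 for tumours 1 to 6, and on the YFP+ arrays -7.07, -4.61, -7.36, -7.35, -7.05 and -4.85. The YFP- arrays of tumours 1, 3, 4 and 5 read above every YFP+ array. That of tumour 2 (-4.52) did so too, but it was not well above background, so its place has no firm order. The YFP- array of tumour 6 read among the YFP+ arrays, and tumour 6 was the only one with a higher reading in YFP+. The probe was well above background on YFP- arrays of tumours 1, 3, 4 and 5 and on YFP+ arrays of tumours 2 and 6. The difference between these readings was -2.55 (SE 0.77; limma, unadjusted p = 0.0059, adjusted p = 0.16), with an unadjusted 95% interval from -4.22 to -0.88. It did not pass the test over all genes.

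Whether Has3 passed the test depended on single arrays, and its difference varied between slides. Without the YFP- array of tumour 6 it was -3.15 (limma, adjusted p = 0.026), and without both arrays of that tumour -3.45 (adjusted p = 0.019). Over all arrays or pairs left out in turn, the difference ran from -3.45 to -2.11 and the adjusted p from 0.019 to 0.45. Within slides 1, 2 and 3, each with 2 arrays of each group, the difference was -0.01, -3.24 and -4.40. Since 6 of the 12 readings were not well above background, the size of the difference is uncertain and no fold is given. With a background model that offsets dim spots (normexp) the difference was -1.07 (limma, adjusted p = 0.11). The 75th percentile that is subtracted was higher on the YFP+ arrays (mean signal 3660 against 2641), which lowers readings at background more there. Hyal3, well above background on no array, differed by -0.50. The part of this shift in the Has3 difference was not tested. Detection was on 2 against 4 arrays (Fisher's exact test, two-sided p = 0.57, adjusted p = 1). Over the 14036 probes with varying detection 0 were called by that test (0%), and 115 had an unadjusted p under 0.05. The smallest p it gave, 0.0022 (Fisher's exact test), is also the smallest that 6 against 6 arrays allow. With so many probes the adjusted test could hardly call any, so the lack of calls says little about detection.

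Markers of several other cell types also stood lower in the YFP+ samples. Of the fibroblast list 7 of 13 genes were called lower and 0 higher (median -1.74). Col3a1, a fibrillar collagen, differed by -1.72 (SE 0.31, limma, adjusted p = 0.013). Of the tumour and ductal epithelial list 6 of 10 were called lower and 0 higher (median -2.21). The mean level of that list ran from -2.15 to -0.84 on YFP+ and from -0.05 to 0.97 on YFP- arrays. The fibroblast list ran from -1.43 to -0.75 on YFP+ and from -0.22 to 1.5 on YFP- arrays. Of 5 tested mesothelial markers, 3 were called lower, the keratins shared with the epithelial list. Msln, mesothelin, differed by -3.15 (SE 0.73; limma, adjusted p = 0.051) and Wt1 by -2.33 (SE 0.79; adjusted p = 0.23), both lower in YFP+ in 6 of 6 tumours, while Upk3b and Upk1b were detected on 2 and 1 arrays. Of the red cell markers 3 of 4 were called lower (median -2.29), and of the acinar markers 1 of 7 (median -1.59). Called or not, every tested gene of the fibroblast, epithelial, mesothelial, red cell and acinar lists had a negative difference. Of 6 neutrophil markers (median -1.63) and of 5 B and plasma cell markers (median 0.76) 0 were called; Jchain, the joining chain of secreted immunoglobulins, differed by 4.78 (SE 1.47; adjusted p = 0.17) and was higher in YFP+ in 6 of 6 tumours. Of 6 endothelial markers (median 0.14) and 4 T and NK cell markers (median 0.41) 0 were called. The genes whose pattern over the 12 arrays was most like that of Has3 were Thbs2 (r = 0.93), a matricellular thrombospondin, Myo5b (r = 0.93), a myosin motor, and Col8a1 (r = 0.88), a short-chain collagen. After the group means were subtracted, r was 0.88, 0.86 and 0.78. Arrays of one group share these markers, fewer cells of a type and less RNA per cell cannot be told apart, and the part of RNA from any of these cell types in the Has3 reading was not tested. Macrophage markers, all 12 detected on all 12 arrays, had a median difference of -0.13 with 0 called.

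**Figure D2:**
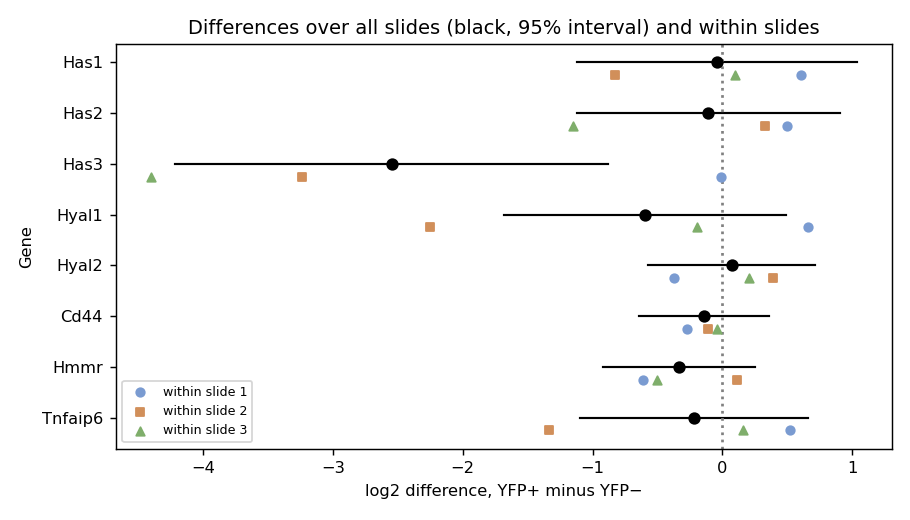
Log2 difference, YFP+ minus YFP- (horizontal axis), for the 8 tested genes, as the mean over 12 arrays with its unadjusted 95% interval from limma (black) and as the mean within each slide of 2 against 2 arrays (coloured symbols). Has3 is the only gene whose interval leaves out 0, from -4.22 to -0.88, with -0.01 in slide 1; the slide values of Cd44 lie closest together.

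The hyaluronidases Hyal2, Hyal1 and Hyal3 lie close together in that order on chromosome 9, with probes at chr9:107474949-107475008, chr9:107481893-107481952 and chr9:107489520-107489579. Their detection differed: the Hyal2 probe was well above background on all 12 arrays, the Hyal1 probe on 11 and the Hyal3 probe on 0. Hyal2, a membrane-anchored enzyme that cuts long chains into fragments, ranged from -1.91 to -0.27 (median -0.60) in YFP- and from -1.14 to -0.42 (median -0.85) in YFP+ macrophages. All 6 YFP+ arrays lay within the YFP- range. The difference of 0.07 (SE 0.30; limma, adjusted p = 0.96) has a 95% interval from -0.57 to 0.72, and it turned to -0.38 within slide 1.

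Hyal1, the lysosomal hyaluronidase, ranged from -3.44 to -1.90 (median -2.79) in YFP- and from -5.40 to -2.22 (median -3.00) in YFP+ macrophages. The lowest reading, -5.40 in YFP+ of tumour 1, was the only one not well above background. The difference was -0.60 (SE 0.50; limma, adjusted p = 0.75), and 3 of 6 tumours were higher in YFP+. Within slides 1, 2 and 3 it was 0.66, -2.25 and -0.20, so its direction differed between slides, and with arrays left out it ranged from -0.96 to -0.02.

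Hyal3, whose enzymatic activity is weak, was not well above background on any array, and its readings ran from -6.91 to -6.18 in YFP- and from -7.29 to -6.80 in YFP+ macrophages. Readings below background have no order, so no fold is given. The 75th percentile subtracted from these readings was higher on the YFP+ arrays. Of the other hyaluronidases, Hyal4, Hyal5, Hyal6 and Spam1, most of them known from testis, were detected on 0 arrays. Of the lysosomal enzymes that work after Hyal1, Gusb, the beta-glucuronidase gene, was detected on all 12 arrays and differed by 0.03 (SE 0.19; limma, adjusted p = 0.98). Hexa was also detected on all 12 and differed by 0.03 (SE 0.19; adjusted p = 0.98).

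Cd44 was bright on every array. By its brightest probe, probe 1, it ranged from 3.96 to 4.93 (median 4.50) in YFP- and from 3.71 to 4.73 (median 4.45) in YFP+ macrophages. The ranges overlapped for most of their length. The difference was -0.14 (SE 0.23; limma, adjusted p = 0.89; 95% interval from -0.64 to 0.36), it ran from -0.25 to -0.0091 with arrays left out, and within the slides it was -0.27, -0.11 and -0.04. The mean of the 4 probes gave -0.49 (limma, adjusted p = 0.45). The sign for probe 1 turned under quantile normalization, the deposited value table and median centring, to 0.060, 0.061 and 0.066 in turn. Probe 2, at the stop codon printed above, gave 0.01 (SE 0.21).

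The upstream probes 3 and 4 gave larger negative differences than probes 1 and 2. Probe 3 read 0.14, 0.37, -0.38, -0.83, 0.58 and 0.90 on the YFP- arrays of tumours 1 to 6, and -1.65, -0.28, -0.64, -1.59, -0.64 and -1.14 on the YFP+ arrays. It was lower in YFP+ in 6 of 6 tumours, and the groups overlapped, since the YFP- arrays of tumours 3 and 4 fell within the YFP+ range. Its difference was -1.12, or 2.17-fold (SE 0.34; limma over single probes with no filter, adjusted p = 0.089), which did not pass the test; 356 of 39394 probes (0.904%) did. Probe 4 ranged from -0.13 to 1.52 (median 0.55) in YFP- and from -0.81 to 0.89 (median 0.03) in YFP+, a difference of -0.69 (SE 0.38; adjusted p = 0.31) with 4 of 6 tumours lower.

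Set against each other within an array, which cancels any shift that is the same for all its log2 values, the mean of probes 3 and 4 minus the mean of probes 1 and 2 was -3.73, -3.54, -4.24, -4.17, -3.37 and -3.31 on the YFP- arrays of tumours 1 to 6. On the YFP+ arrays it was -4.77, -4.08, -4.65, -5.01, -4.77 and -4.12. The YFP+ value was the lower in 6 of 6 tumours, and 4 of 6 YFP+ arrays lay below every YFP- array. The YFP+ mean was -4.57 (SD 0.38, n = 6) and the YFP- mean -3.73 (SD 0.40, n = 6), a difference of -0.84. It was -0.32 within slide 1, -1.32 within slide 2 and -0.87 within slide 3, between -0.94 and -0.75 with each array left out, and -0.995 with quantile normalization. For single pairs the difference was -0.98 (probe 3 minus 1), -1.13 (3 minus 2), -0.55 (4 minus 1) and -0.70 (4 minus 2). These were lower in YFP+ in 5, 5, 5 and 4 of 6 tumours in turn, so probe 3 gave the larger part. The grouping of the probes was chosen after their values were seen, so it is given as a description with no test. The level of each within-array value reflects the binding of different probes and is not a ratio of transcript forms. Upstream probes also lie further from the 3′ end, and the YFP+ arrays were brighter (75th percentile of the signal 3660 ± 266 against 2641 ± 412, SD, n = 6; exact two-sided permutation p = 0.0043; higher in 6 of 6 tumours); the part of either in this difference was not tested.

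**Figure D3:**
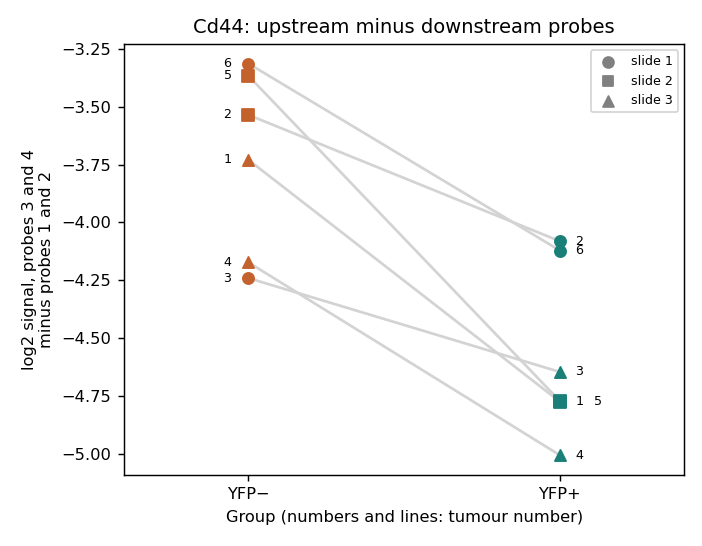
Within-array log2 signal of Cd44 probes 3 and 4 minus probes 1 and 2 (vertical axis) in YFP- and YFP+ samples (horizontal axis), with 1 point per array, its tumour number beside it, its slide as the symbol, and a line joining the same tumour number. All 6 lines fall towards YFP+; the YFP- values run from -4.24 to -3.31 and the YFP+ values from -5.01 to -4.08.

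Genes that act with CD44 did not pass the test, 0 of 11 (median -0.17). Ezr, ezrin, which ties the CD44 tail to actin, differed by -0.46 (SE 0.16; limma, adjusted p = 0.27). Esrp2, an epithelial splicing regulator known to favour the variable exons of CD44, differed by -1.06 (SE 0.40; adjusted p = 0.29) and was lower in YFP+ in 5 of 6 tumours. Esrp1, its paralogue with a like role, differed by 0.21 (SE 0.37; adjusted p = 0.91) and was higher in YFP+ in 4 of 6 tumours. Spp1, osteopontin, a CD44 ligand, differed by -0.59 (SE 0.34; adjusted p = 0.58) and was lower in 6 of 6 tumours. Nf2, merlin, which competes with ezrin, differed by 0.42 (SE 0.27; adjusted p = 0.64).

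Hmmr (chr11:40515324-40515383) was detected on all 12 arrays and ranged from 0.83 to 2.28 (median 1.68) in YFP- and from 0.85 to 1.66 (median 1.44) in YFP+ macrophages. The YFP- arrays of tumours 3, 4 and 6 lay above every YFP+ array, and all YFP+ arrays lay within the YFP- range. The difference was -0.33 (SE 0.27; limma, adjusted p = 0.74), with -0.61, 0.11 and -0.50 within the slides and a range from -0.56 to -0.13 with arrays left out. Hmmr peaks in dividing cells, so spindle and cell-cycle genes were read beside it. Of 14 tested, 0 were called, and their median was 0.30, on the other side of 0 from Hmmr. Tpx2, a spindle assembly factor that HMMR is known to place, differed by 0.44 (SE 0.31; adjusted p = 0.68) and was higher in YFP+ in 6 of 6 tumours. Kif11, a spindle motor, differed by 0.64 (SE 0.51; adjusted p = 0.73), Tubg1, the gamma-tubulin of spindle poles, by 0.41 (SE 0.32; adjusted p = 0.72) and Mki67, the Ki-67 gene, by 0.41 (SE 0.42; adjusted p = 0.80). The 3 named genes most like Hmmr over the arrays, Atcay, Gm4470 and Pcdh15 (r = 0.96, 0.96 and 0.93), are not in that list.

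Tnfaip6 is induced by inflammatory signals. Its 3 probes lie within 695 bases at chr2:51911507-51912201, and they differed in what they gave. Probe 2, the brightest, ranged from -1.26 to 0.87 (median -0.23) in YFP- and from -1.40 to 0.40 (median -0.55) in YFP+, a difference of -0.22 (SE 0.41; limma, adjusted p = 0.91). Probe 1 ranged from -2.0 to -0.20 (median -0.50) in YFP- and from -2.47 to -1.08 (median -2.01) in YFP+. There 4 YFP- arrays lay above every YFP+ array, and the difference was -0.98 (SE 0.39; limma over single probes, adjusted p = 0.13). Probe 3 gave 0.09 (SE 0.64). Over the 12 arrays r between probes 1 and 2 was 0.12, between 1 and 3 0.57 and between 2 and 3 0.28, so the 3 probes do not rank the samples alike. The GC content of probes 1, 2 and 3 is 23.3%, 35% and 20%.

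By probe 2, the genes most like Tnfaip6 over the arrays were Ier3 (r = 0.90), an immediate early response gene, Tnfsf9 (r = 0.83), a TNF family ligand, and Ifrd1 (r = 0.81). These correlations are chosen as the highest among all genes, over arrays that share slides and tumours. For Has1 the most alike was Gpank1 (r = 0.92), for Has2 Trim71 (0.94), for Hyal1 Cipc (0.93), for Hyal2 Fbf1 (0.87) and for Cd44 Actn1 (0.92), an actin cross-linker. Among the 8 genes themselves, the highest r was 0.61, between Hyal1 and Tnfaip6, and the lowest -0.57, between Hyal2 and Tnfaip6. The 3 synthases were only weakly alike, with r of 0.12 between Has1 and Has2, 0.06 between Has1 and Has3 and 0.37 between Has2 and Has3.

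The supply of UDP-sugars limits hyaluronan synthesis in many cells. Of 7 genes of that supply 0 were called (median 0.04). Gfpt2, which makes glucosamine phosphate at the entry to the hexosamine pathway, differed by -1.44, or 2.71-fold (SE 0.50; limma, adjusted p = 0.24), and was lower in YFP+ in 6 of 6 tumours and within each slide (-0.65, -1.79 and -1.88). Ugdh, which makes UDP-glucuronic acid, differed by -0.63 (SE 0.27; adjusted p = 0.38) and was lower in 5 of 6 tumours. Ugp2, which makes UDP-glucose, differed by 0.24 (SE 0.27; adjusted p = 0.83), and Pgm3 by 0.50 (SE 0.65; adjusted p = 0.86).

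Other receptors and uptake genes gave 0 calls among 9 (median 0.00). Lyve1, the receptor of lymphatic vessels that some tissue macrophages also make, ran lower in YFP+ in 5 of 6 tumours without passing the test, by a difference of -0.98 (SE 0.34; limma, adjusted p = 0.25) and -0.25, -0.78 and -1.90 within the slides. Stab2, the clearance receptor of sinusoidal endothelium, differed by -2.16 (SE 1.16; adjusted p = 0.54), and Stab1, found on macrophages, by -0.47 (SE 0.26; adjusted p = 0.55). Tlr4, which is reported to sense hyaluronan fragments, differed by 0.57 (SE 0.41; adjusted p = 0.69).

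Of 16 genes for hyaluronan-binding matrix proteins 9 could be tested, 0 were called, and their median was -0.27. Ambp, the bikunin precursor, differed by -2.55 (SE 0.70; limma, adjusted p = 0.11) and Acan, aggrecan, by -2.12 (SE 0.69; adjusted p = 0.21), both lower in YFP+ in 6 of 6 tumours. In the other direction, Itih2, an inter-alpha-inhibitor heavy chain that TSG-6 moves onto hyaluronan, differed by 1.67 (SE 0.73; adjusted p = 0.40). Vcan, versican, a proteoglycan that monocytes make, differed by 1.06 (SE 0.47; adjusted p = 0.42). Both were higher in YFP+ in 6 of 6 tumours, although within slide 3, where the 2 groups carry partly different tumour numbers, Vcan was at -0.48. Over all 6 lists, 53 pathway genes beside the 9 were tested and 0 were called. Of the 53, 9 had an unadjusted p under 0.05 (limma), 7 of them lower and 2 higher in YFP+, where 11.2% of all genes did. The differences of the 53 were positive for 29 and negative for 24, with a median of 0.03.

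**Figure D4:**
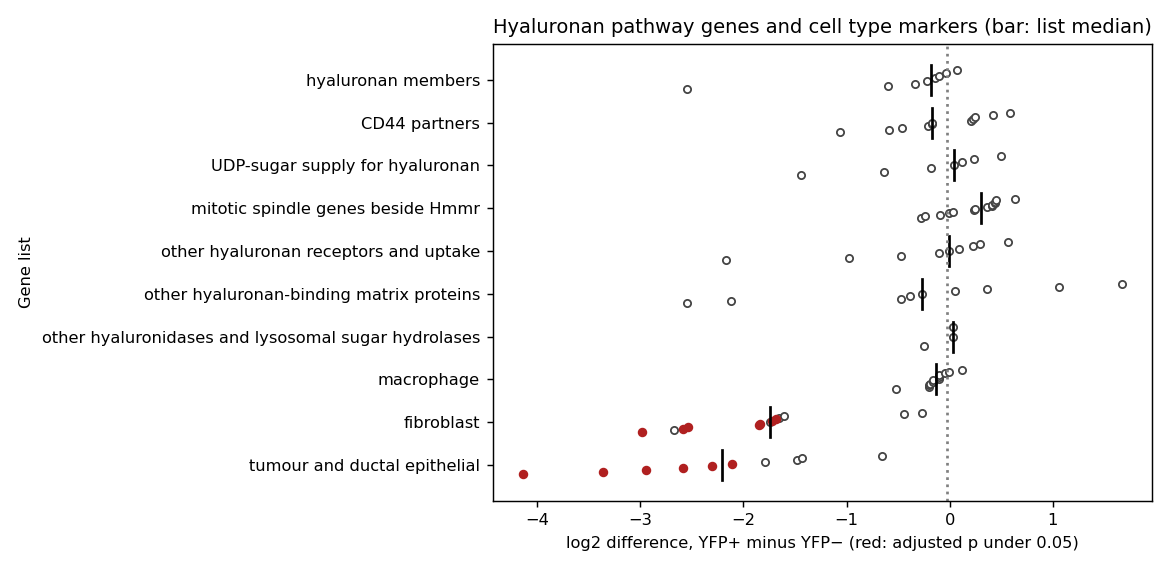
Log2 difference, YFP+ minus YFP- (horizontal axis), of each tested gene of the hyaluronan lists and of 3 marker lists (vertical axis), with 1 point per gene, red where the adjusted p was under 0.05, a bar at each list's median and a dotted line at the median of all genes (-0.03). All points of the 8 tested hyaluronan genes and of the 6 pathway lists are open, while 7 fibroblast and 6 epithelial markers are red.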

How the data were processed

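Per the labels' protocols, cells were sorted into lysis buffer and amplified cDNA carrying Cy5 was put on Agilent mouse arrays, here of the 4x44K design. The deposited red processed signal is an intensity from Agilent Feature Extraction 11.5.1.1, per the file headers and the submitters' processing notes. The deposited value table holds log2 values, with a median of 8.83 in every column, and served as an alternative; 0 of its columns were not used. The well-above-background flag is deposited with each spot. The 1377 control spots and spots with outlier flags were left out, spots of 1 probe were averaged, and 35 of 39429 probes without a value on some array were dropped; 0 spots were saturated. Log2 signals minus each array's 75th percentile were kept for 25434 probes well above background on at least 6 arrays, and the brightest passing probe stood for a gene. RefSeq accessions renamed 1403 probes and 0 of these genes.

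Groups were compared with limma 3.58.1 (R 4.3.3, lmFit and eBayes, Benjamini-Hochberg adjustment over all genes, 0.05); errors are moderated standard errors and intervals are not adjusted. Array brightness was compared by an exact permutation test, and detection by Fisher's exact test. The number of arrays limits the precision. The fit was tested on simulated data. Alternatives covered blocks, background, scaling, filter, probe, slides, brightness and arrays left out. Named were all 9 genes, up to 4 genes of each pathway or marker list with the smallest p, and the most alike genes by r; Esrp1, Wt1, Upk1b and Upk3b were added after their values were seen. 1 gene that the rule names is not reported here. The genes and lists were chosen with earlier results of these data known. Macrophages of normal pancreas and other mice were not analysed here.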

Additional observations from a re-analysis of the deposited data

How the results depend on the processing

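No hyaluronan gene was called higher in YFP+ under any of the 37 alternatives, and none was called lower except Has3 without the YFP- array, or both arrays, of tumour 6 (0 to 1 over arrays left out). The numbers of all genes called lower and higher were 433 and 123 with slide as a block, 434 and 124 with tumour as a random block too, 450 lower with normexp, 116 higher with median centring, 40 higher when all 12 arrays had to be detected, 9 and 3 with array brightness as a covariate, 160 and 36 without slide 3, 0 and 0 in each slide alone, 120 and 24 at an adjusted p under 0.01, and 437 and 125 under 0.10. With arrays left out they ran from 162 to 299 and from 32 to 86. Array brightness itself differed with the group (75th percentile 3260 to 3930 in YFP+ and 2121 to 3329 in YFP-). The fit with that covariate therefore cannot tell brightness and group apart. Median centring moved the median of all genes from -0.03 to 0.18 and the higher share of calls from 19.1% to 33.5%. The tumour number as a replicate block gave 246 lower, 50 higher and 0 hyaluronan genes, with an adjusted p of 0.35 for Has3 (limma). Correlations of same-numbered samples were 0.37, 0.19 and 0.28 for tumours 4, 5 and 6, each with both arrays on 1 slide. They were -0.30, 0.11 and -0.13 for tumours 1, 2 and 3, whose arrays lay on different slides. Because slide and number overlap here, these correlations cannot decide whether the numbers pair the samples. The main fit did not use the numbers as pairs.

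Signs of the small differences turned, with no call (Cd44 ran from -0.25 to -0.0091 and Hmmr from -0.56 to -0.13 with arrays left out). Has1 became 0.14 with quantile normalization and with the deposited table, 0.17 with median centring, 0.61 in slide 1 and 0.10 in slide 3, and ran from -0.46 to 0.41 with arrays left out. Has2 became 0.10 with median centring, 0.67 with brightness, 0.41 without slide 3, 0.50 in slide 1 and 0.33 in slide 2 (arrays left out, -0.49 to 0.32). Hyal1 became 0.66 and Hyal2 -0.38 in slide 1 (Hyal2 with arrays left out, -0.14 to 0.26). Cd44 became 0.060 with quantile normalization, 0.061 with the deposited table, 0.066 with median centring, 0.46 with brightness and 0.0062 by probe 2. Hmmr became 0.49 with brightness and 0.11 in slide 2. Tnfaip6 became 0.53 in slide 1, 0.16 in slide 3 and 0.092 by probe 3 (arrays left out, -0.59 to 0.019). The use of other probes was chosen after seeing the data. The cause was not tested. With brightness as a covariate Has1 was -0.93, Hyal1 -1.69 and Tnfaip6 -0.84, further from 0 than without it, and Has3 was -2.61. Dim signal limits Has1, Has3, Hyal1 and Hyal3.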
